A study of Mus musculus with 9 samples.

Results

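The cytosolic ribosomal proteins are the proteins of the large (60S) and small (40S) subunits of the ribosome outside mitochondria. Their genes were taken as every row of the count table whose symbol begins with Rpl or Rps and goes on with the number of a subunit protein, with an a, l or x form, or with the stalk names P0 to P2. The rule found 84 of 24421 rows, of which 46 belong to the large subunit, 31 to the small subunit and 7 are variant paralogues. Fau and Rack1 (listed as Gnb2l1), whose products also sit on the ribosome, lie outside the rule and are given beside it.

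RNA sequencing was performed on ex vivo samples from the brains of C57BL/6 mice that carried SB28, a mouse glioma cell line with GFP. The table held 3 control libraries, 3 BAL101553 libraries and 3 libraries labelled astrocytes, whose treatment label is also BAL101553, an oral prodrug that acts on microtubules and the mitotic spindle checkpoint. Mice were 6 to 8 weeks old at implantation, and GFP+ CD45- CD11b- cells were sorted from vehicle mice on day 21 and from BAL101553 mice on day 35 (given elsewhere as day 33), as the study describes its ex vivo samples. Its data statement names another deposit, so that this sort and these days may not hold for these libraries. The labels call the control and BAL101553 material whole tissue, and how the astrocyte libraries were obtained is not given in the sources used here. Treatment and days of growth cannot be told apart, SB28 is a single cell line, and nothing in the labels says which mice the libraries came from, so that p-values measure the spread between these libraries, which may be technical.

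Between 22919523 and 34013875 reads were counted per library. The labelled cell types were compared with marker lists in CPM, the reads of a gene relative to its library's total after TMM scaling. Summed over 18 genes, markers of dividing cells lay between 1613 and 1879 CPM in the control and BAL101553 libraries and between 165 and 170 in the astrocyte libraries. The 8 astrocyte markers summed to 17820 to 21340 CPM in the astrocyte libraries, against 682 to 973 in the other 6. The 6 oligodendrocyte markers summed to 10280 to 12720 CPM in the astrocyte libraries, against 15.3 to 20.6 in the others, and the 10 markers of microglia and macrophages to 493 to 1074 CPM, against 2.24 to 5.12. Markers of several brain cell types were thus present in the libraries labelled astrocytes. The sums of 2 further lists were lower there. The 7 neuron markers summed to 14.1 to 16.6 CPM, against 16.8 to 76.0 in the other 6 libraries, and the endothelial markers to 181 to 210, against 516 to 868. By gene against BAL101553 libraries, 3 of the 7 neuron markers were higher and 3 lower. Of 6 endothelial markers 4 were higher and 1 lower (edgeR, adjusted p under 0.05). Between the tumor groups, the astrocyte markers summed to 941 to 973 CPM in control and 682 to 798 in BAL101553 libraries. The 6 endothelial markers summed to 740 to 868 and 516 to 647. Abundant genes dominate such sums. By gene, 6 astrocyte markers could be tested between these groups, with a median log2 fold change of 0.22. Of these, 1 was higher (Slc1a3) and 1 lower (Gja1) at an adjusted p under 0.05 (edgeR). Of the 6 endothelial markers 1 was lower (Cdh5) and 0 higher, with a median of -0.61. The part of cell mixture in the results below was not tested, and in bulk RNA fewer cells of a type and less RNA per cell cannot be told apart.

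Ribosomal proteins surround the ribosomal RNA that decodes messages and forms peptide bonds. Cells make them in matched amounts, and a large share of the messages of a growing cell encodes them. Most of these messages begin with a C and a run of C and T letters, the terminal oligopyrimidine (TOP) tract, through which mTOR and the protein LARP1 set their translation.

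Start-site windows are printed to show that tract, in members with changes or counts described below and in Rpl28, which has the longest run of those printed. Of 84 members, 63 matched the RefSeq promoter table on GRCm38.p6 by symbol. Each line gives 30 bases of the transcribed strand, 10 before the annotated start and 20 from it on, with the longest run of C and T in capitals. Rpl28, Rps6, Rplp2, Rpl12 and Rps27 are standard subunits whose runs reach 7 to 11 letters. Rpl22l1 and Rps27l are the variant paralogues that fell in BAL101553 libraries, Rpl22 is the member that differed least in astrocyte libraries, and Rpl10l and Rpl3l had few or no counts.
Rpl28 (chr7:4792955-4792984, + strand): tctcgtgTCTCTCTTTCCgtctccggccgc
Rps6 (chr4:86857348-86857377, - strand): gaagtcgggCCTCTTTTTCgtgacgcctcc
Rplp2 (chr7:141447641-141447670, + strand): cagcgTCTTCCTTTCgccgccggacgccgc
Rpl12 (chr2:32961702-32961731, + strand): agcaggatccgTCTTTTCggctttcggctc
Rps27 (chr3:90213629-90213658, - strand): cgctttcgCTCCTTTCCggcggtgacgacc
Rpl22l1 (chr3:28805498-28805527, + strand): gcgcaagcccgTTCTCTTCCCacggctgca
Rps27l (chr9:66946076-66946105, + strand): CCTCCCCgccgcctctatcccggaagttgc
Rpl22 (chr4:152325716-152325745, + strand): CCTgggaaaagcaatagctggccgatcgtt
Rpl10l (chr12:66284382-66284411, - strand): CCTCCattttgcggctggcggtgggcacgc
Rpl3l (chr17:24727816-24727845, + strand): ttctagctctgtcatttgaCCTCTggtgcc

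A run of at least 6 C or T letters lay in this window for 38 of 63 members (60.3%) and for 8640 of 26962 other genes (32.0%). The letters CTTTCC, read on the transcribed strand alone, were found in the window of 10 members (15.9%) and of 402 other genes (1.49%). The letters CCGGAAGT, a core bound by ETS factors, were found on either strand of the 300-base promoter window (250 before and 50 after the start) of 12 members (19.0%) and 1152 other genes (4.27%). In Rps6 and Rps27 the run spans the annotated start, whereas in Rps27l it lies before it and in Rpl22 it has 3 letters. The table takes several starts for some genes, and for some the first start in use may differ from the one listed.

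The members took up a large part of each tumor library. They held 5.15%, 4.79% and 5.51% of all counts in the 3 control libraries, 3.87%, 4.57% and 3.96% in the BAL101553 libraries and 1.05%, 1.05% and 1.15% in the astrocyte libraries. The 3 groups did not overlap. The mean share was 5.15% ± 0.361 (SD, n = 3) in control, 4.13% ± 0.382 in BAL101553 and 1.09% ± 0.0592 in astrocyte libraries. Each of the 2 differences, -1.02 and -3.05 percentage points, had an exact two-sided permutation p of 0.1, the smallest that 3 against 3 libraries allow.

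**Figure D1:**
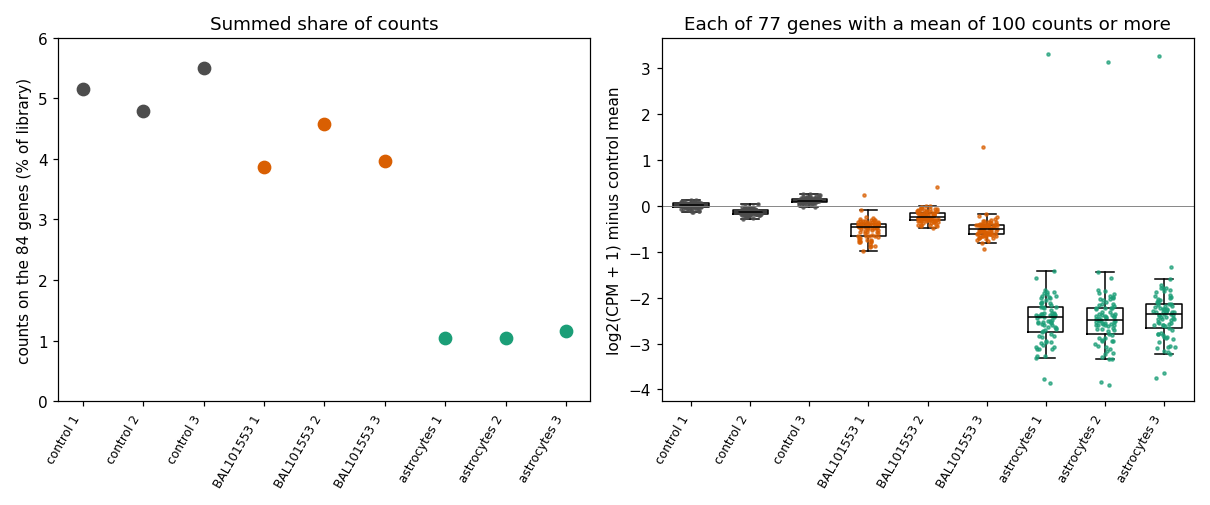
Left, the percentage of each library's counts on the 84 ribosomal protein genes; right, log2(CPM + 1) of each of 77 genes (points, with box for quartiles) minus its mean in control libraries. The BAL101553 libraries lie at 3.87% to 4.57%, below the control libraries, and the astrocyte libraries at 1.05% to 1.15%; the gene above 1 in the third BAL101553 library and above 3 in astrocyte libraries is Rps4l.

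Levels differed widely between members. Per kilobase of the shortest transcript that holds the longest coding sequence, the 77 members with a mean of 100 counts or more had a median of 841 CPM per kb in control libraries, with quartiles of 615 and 1041. The medians were 631 CPM per kb in BAL101553 and 153 in astrocyte libraries. Rps2, a protein of the mRNA entry channel, was highest per kb in control libraries at 2581 ± 148 CPM per kb (SD, n = 3), followed by Rplp1 of the acidic stalk at 2339 ± 108 and Rps12 at 1946 ± 268. Rps12 and the next member, Rpl10 at 1873 ± 211, differed by less than their spread. In astrocyte libraries Rplp1 led at 319 ± 17.2 CPM per kb, before Rpl41 at 291 ± 23.3 and Rps15 at 287 ± 2.63, and Rps2 stood at 186 ± 6.81. Rpl41 and Rps15 differed by less than their spread.

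A few standard subunits had almost no counts although the ribosome needs each of them. Rpl26 had 0 counts in all 9 libraries, Rpl30 had 2 to 15, Rpl34 had 4 to 47 and Rps27 had 7 to 40, while Rpl35, for one, had 50.5 to 524 CPM. Reads of 50 bases from these messages often match other genes. Of all 50-base stretches of the transcript, 98.7% in Rps27, 76.4% in Rpl30, 71.3% in Rpl26 and 50.6% in Rpl34 also occur in another annotated transcript, many from processed pseudogenes. The shares were 95.1% in Rpl35 and 93.8% in Rpl5, which had more counts. A share counts stretches in any other annotated gene, among them Wdr38 for Rpl35 and Fam69a for Rpl5. Genes that overlap at the same place were not set apart from pseudogenes, so the shares of Rpl35 and Rpl5 may not be comparable. The leading matches of Rpl10 (92.1%) and Rpl9 (86.7%) include named pseudogenes. Rpl10 still had 5396 to 37172 counts and Rpl9 4465 to 17025. A high share alone thus did not set Rpl26, Rpl30, Rpl34 and Rps27 apart. How reads with several matches were counted is not given in the sources used here. The levels of Rpl26, Rpl30, Rpl34 and Rps27, and of members with high shares in general, are thus uncertain.

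In BAL101553 against control libraries, ribosomal protein genes were lower almost throughout. Of 80 members tested, 29 fell and 0 rose (edgeR quasi-likelihood test, adjusted p under 0.05), whereas 6.09% of all 12633 genes tested fell and 8.64% rose. The median log2 fold change was -0.40, with quartiles of -0.50 and -0.33, against 0.02 over all genes tested. The log2 fold change was below 0 for 77 members, against 48.5% of all genes. BAL101553 levels lay wholly below control levels for 58 members, wholly above for 0 and overlapped for 22, whereas 19.6% of all genes lay wholly below and 20.1% wholly above. Before adjustment, 66 members had p under 0.05, 65 of them with lower levels, as had 34.1% of all genes in either direction.

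Both subunits were among the genes that fell. Of the large subunit, 16 of 45 tested genes fell, with a median log2 fold change of -0.39, and of the small subunit 11 of 31, with -0.41. The remaining 2 were variant paralogues.

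Leaving out 1 library changed the count more than any choice of scaling. Without control replicate 1, control replicate 3 or BAL101553 replicate 3, 0 members fell, and without BAL101553 replicate 1 it was 2, whereas without BAL101553 replicate 2 it was 55; the median stayed between -0.48 and -0.34. With 2 libraries in one group the calls over all genes dropped too, but not evenly. Genes lower were 0.973% without control replicate 1, 0.319% without control replicate 3 and 1.54% without BAL101553 replicate 3. Without BAL101553 replicate 1 they were 3.17%, beside 2 of 80 members. Without BAL101553 replicate 2 they were 5.74%, beside 55 of 80 members. The second BAL101553 library was nearest to control: 58 of the 77 well counted members lay below the lowest control library in it, against 76 in each of the other two.

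Among the genes that fell, Rpl22l1, a paralogue of Rpl22, had the largest log2 fold change. It measured 91.4, 73.5 and 107 CPM in control libraries and 45.1, 69.9 and 50.7 in BAL101553 libraries. All 3 BAL101553 values were lower than all control values, with a log2 fold change of -0.71 ± 0.194 (SE, adjusted p = 0.0473).

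Rps16, of the small subunit, measured 612, 521 and 639 CPM in control and 321, 477 and 366 in BAL101553 libraries. The groups did not overlap, and the log2 fold change was -0.60 ± 0.160 (adjusted p = 0.0441). Rps3, at the mRNA entry and also a DNA repair enzyme, had -0.60 ± 0.146 (adjusted p = 0.0349). Rps3 measured 902, 763 and 926 CPM in control and 495, 681 and 532 in BAL101553 libraries, again without overlap. Rps15a fell by 0.56 on the log2 scale (SE 0.142, adjusted p = 0.0376).

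The members with the lowest adjusted p were not those with the largest falls. Rplp1 had 1147, 1127 and 1228 CPM in control and 832, 872 and 787 in BAL101553 libraries, a tight pattern with a log2 fold change of -0.49 ± 0.0920 (adjusted p = 0.0184). Rps2 had 2495, 2334 and 2619 CPM in control and 1775, 1833 and 1616 in BAL101553 libraries, with -0.51 ± 0.101 (adjusted p = 0.0199). Rplp1 was 1.40-fold and Rps2 1.42-fold lower, and neither gene's groups overlapped.

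The acidic stalk, which recruits elongation factors, was split by the threshold. Rplp1 and Rplp2 fell, the latter with -0.51 ± 0.133 (adjusted p = 0.0416), and their anchor Rplp0 had -0.29 ± 0.112 (adjusted p = 0.11). Rpl5 and Rpl11, which bind 5S rRNA and restrain MDM2 when ribosome assembly fails, had -0.23 ± 0.122 (adjusted p = 0.225) and -0.35 ± 0.109 (adjusted p = 0.0662). Rps27a, made as a fusion with ubiquitin, fell with -0.39 ± 0.109 (adjusted p = 0.0495).

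Rps6, the S6 kinase target, fell from 830, 755 and 858 CPM to 573, 668 and 556. Its log2 fold change was -0.44 ± 0.109 (adjusted p = 0.037). Rpsa, also known as a laminin receptor, measured 2299, 2406 and 2294 CPM in control and 1729, 2062 and 1663 in BAL101553 libraries. The groups did not overlap, but at -0.35 ± 0.112 its adjusted p was 0.0688.

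Of 5 proteins of the decoding site and mRNA channel, Rps2, Rps3 and Rps9 fell, and Rps15 (-0.41) and Rps23 (-0.28) did not pass. Of 6 proteins lining or bordering the exit tunnel, 0 passed, with log2 fold changes from -0.42 in Rpl39 to -0.22 in Rpl4. Of 17 tested genes mutated in Diamond-Blackfan anemia, a failure of red cell production, 3 fell (Rpl27, Rpl31 and Rps10), with a median of -0.37.

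**Figure D2:**
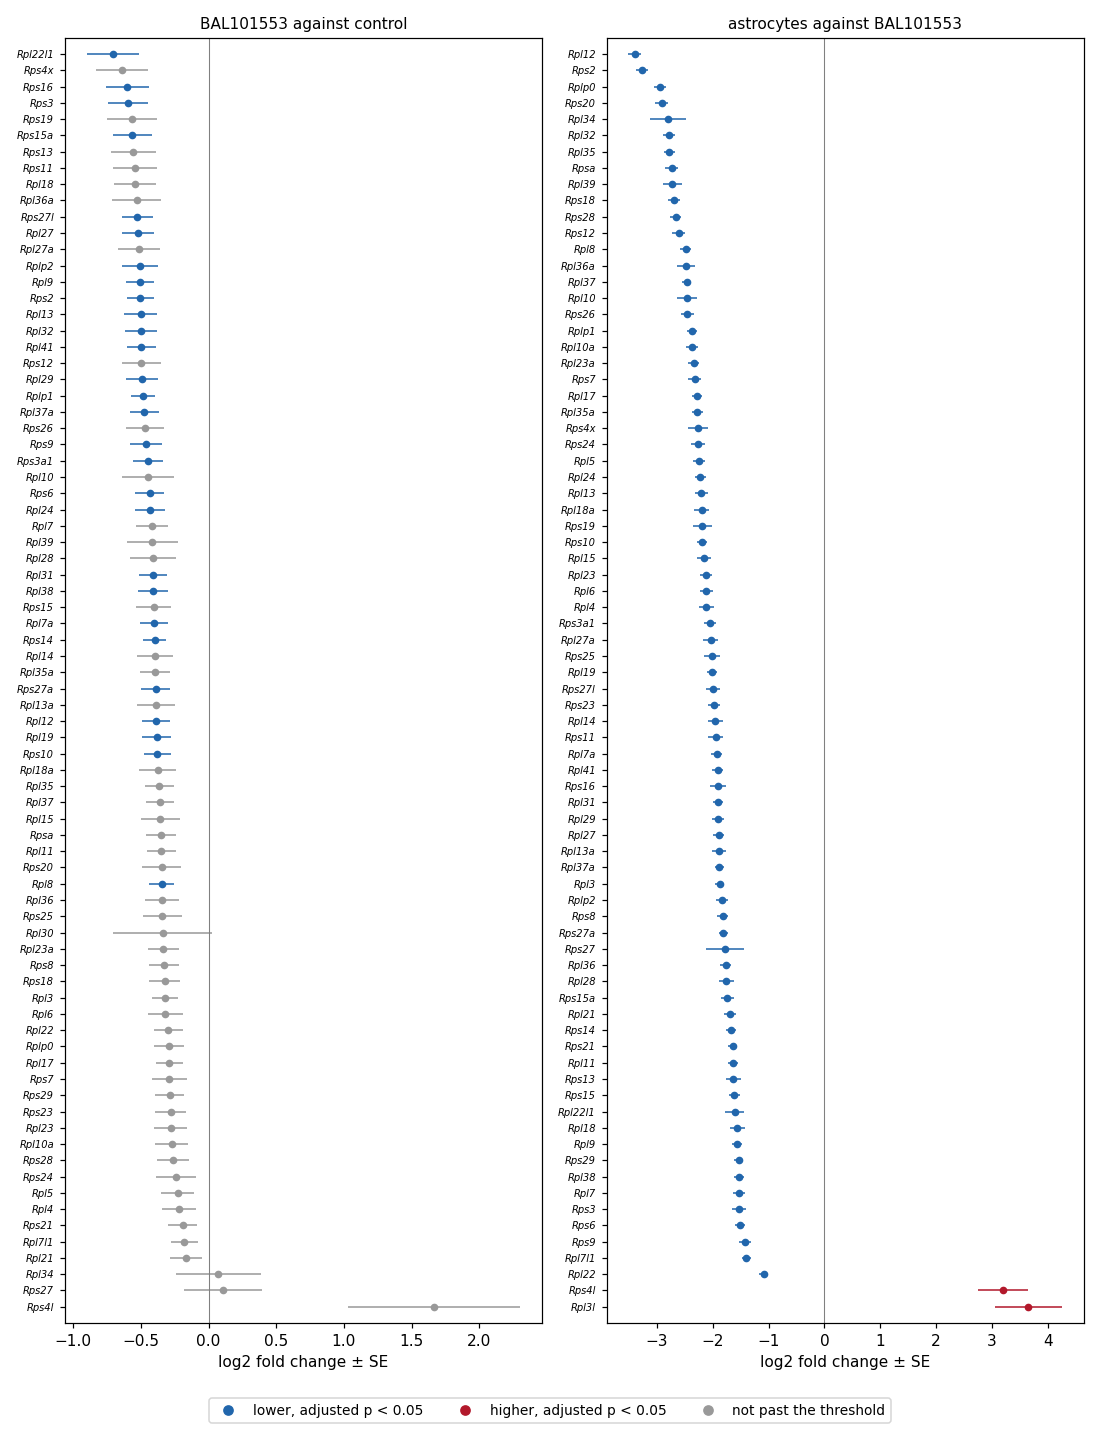
Log2 fold change with SE of 78 of the 80 members tested, ordered by value in each comparison; blue marks genes lower and red genes higher at an adjusted p under 0.05, grey the rest. Of the 78 genes drawn, 28 are blue in BAL101553 against control, and 76 are blue and 2 red in astrocytes against BAL101553.

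Variant paralogues did not follow a single pattern. Rps27l, whose partner Rps27 was hardly counted, had 105, 97.4 and 109 CPM in control and 64.1, 82.0 and 69.3 in BAL101553 libraries. The groups did not overlap, and the log2 fold change was -0.53 ± 0.113 (adjusted p = 0.0245). Rpl7l1, the paralogue of Rpl7, had -0.18 ± 0.0990 (adjusted p = 0.235).

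Rpl22l1 and Rpl22 also differed in ratio. Per kb, Rpl22l1 stood at 37.3%, 32.8% and 38.8% of Rpl22 in control libraries, at 22.8%, 32.3% and 26.8% in BAL101553 libraries and at 18.2%, 18% and 21% in astrocyte libraries. These groups did not overlap, though the second BAL101553 library lay just under the lowest control library. Of the Rpl22l1 transcript, 65.6% of 50-base stretches occur in other transcripts.

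Rps4l, an expressed copy of Rps4x that the annotation types as a transcribed processed pseudogene, had 9, 5 and 16 counts in control and 19, 22 and 83 in BAL101553 libraries. Most of the rise came from the third BAL101553 library, and at a log2 fold change of 1.66 ± 0.637 it did not pass (adjusted p = 0.111). Rpl39l, a testis paralogue of Rpl39, had 0, 1 and 1 counts in control, 7, 13 and 6 in BAL101553 and 2, 0 and 2 in astrocyte libraries. It failed the filter on low counts, and without that filter it passed the test with a log2 fold change of 3.27 ± 0.901 (adjusted p = 0.0451), a value that rests on control counts at or under 3. Rpl3l, the muscle form of Rpl3, had at most 2 counts in these 6 libraries. Rpl10l, a testis copy of Rpl10, had 0 counts in all 9. By library this allows up to 0.0882 to 0.131 CPM, here without TMM scaling (3 counts, counting error only).

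**Figure D3:**
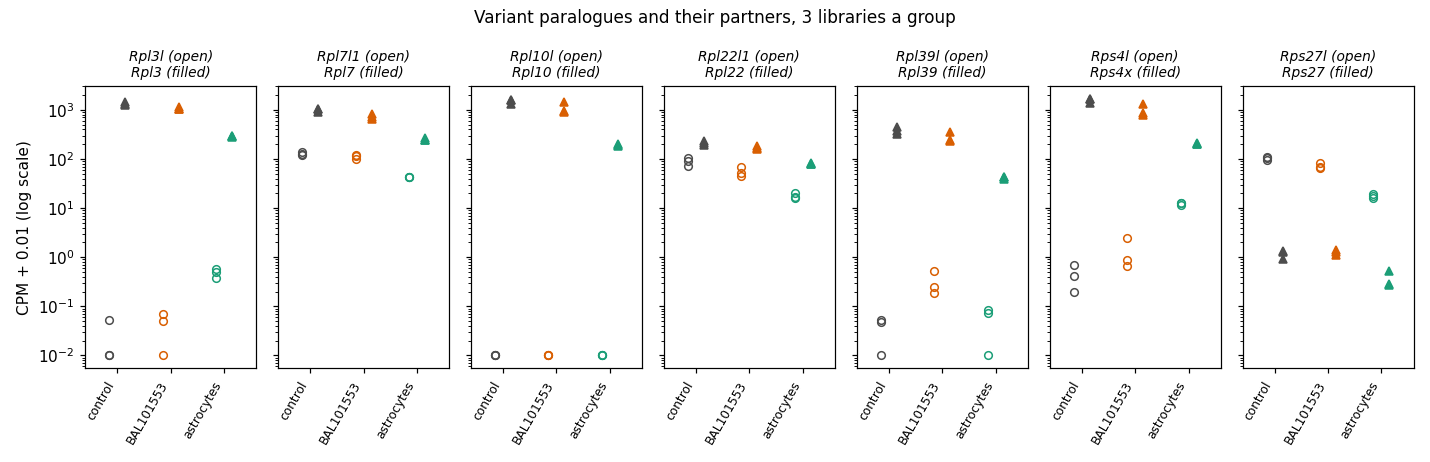
CPM + 0.01 on a log axis in each of 3 libraries a group for the 7 variant paralogues (open circles) and their partners (filled triangles). Rpl22l1 and Rps27l fell in BAL101553 libraries, Rps4l lies at 11.4 to 12.9 CPM in astrocyte libraries against 0.190 to 2.44 in the rest, and Rpl10l is at 0 throughout.

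The members with the lowest values clustered by chromosome, a pattern chosen after the values were seen and given without a test. Of the 12 members with the lowest log2 fold changes, 10 lie on chromosome 7 or X. The 14 members tested on chromosome 7, among them Rps16, Rps3 and Rps15a, had a median log2 fold change of -0.55, the 4 on chromosome X had -0.49 and the 62 elsewhere -0.36. Their 50-base shares, lengths and levels were not matched.

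Other genes on these chromosomes were lower as well. The 901 other genes tested on chromosome 7 had a median of -0.12 and the 433 on X had -0.12, against 0.02 over all genes tested. Chromosome 10 had a like shift, with -0.12 over 593 other genes and -0.48 over its 4 members. The X-linked members differed between BAL101553 libraries. Rps4x had 1667, 1361 and 1638 CPM in control and 877, 1298 and 805 in BAL101553 libraries. Its second BAL101553 value lay close to the control range, and at -0.64 ± 0.191 the adjusted p was 0.059. Rpl10 (-0.45 ± 0.193, adjusted p = 0.143), Rpl36a (-0.53 ± 0.180, adjusted p = 0.0821) and Rpl39 (-0.42 ± 0.187, adjusted p = 0.159) had the same high second library, and their groups overlapped.

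**Figure D4:**
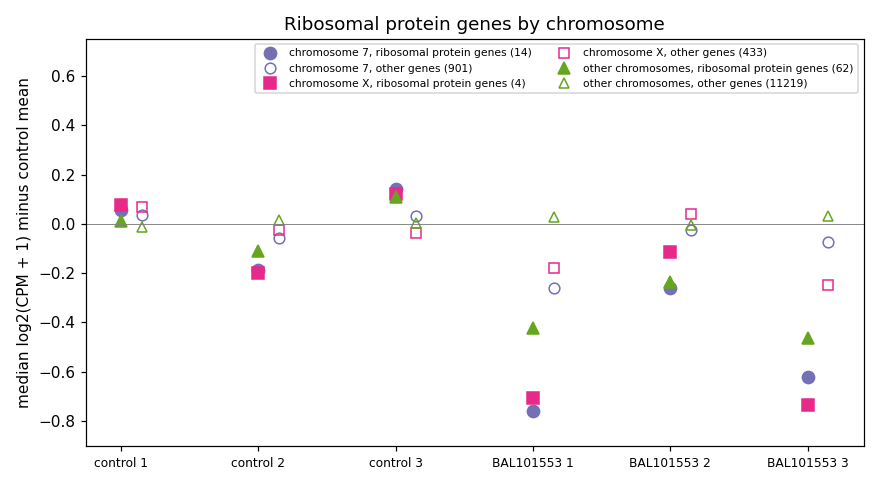
Median log2(CPM + 1) minus the control mean in each control and BAL101553 library, for ribosomal protein genes (filled) and all other tested genes (open) on chromosome 7, on chromosome X and elsewhere. On chromosome 7 the 3 BAL101553 libraries stand at -0.76, -0.26 and -0.62 for the members and at -0.26, -0.02 and -0.07 for the other genes.

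The part of these shifts of whole chromosomes in the members' values was not tested. Less the median of the other genes on its own chromosome, the median member had a log2 fold change of -0.41, so that the lower level of the members as a whole was not smaller beside genes of the same chromosomes.

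Ribosomal protein messages are short, and short genes in general were lower in BAL101553 libraries. Length was taken as the summed length of all annotated exons of a gene. Among genes that are not members, the median log2 fold change was -0.22 for 501 to 750 bases, -0.20 for 751 to 1000, -0.15 from there to 1500, -0.10 for 1501 to 2000 and -0.03 for 2001 to 3000. It was 0.00 from there to 4000 bases, 0.08 for 4001 to 6000 and 0.18 above 6000. The 81 genes of 500 bases or less broke the order at 0.27. Over the 12470 other genes Spearman's rho of log2 fold change with length was 0.23, a description over genes that share the same 6 libraries.

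Members were lower than other genes in each length range that held several of them. They had medians of -0.45 for 501 to 750 bases (14 members), -0.40 for 751 to 1000 (20 members) and -0.38 from there to 1500 (24 members). Between the quartiles of member lengths, 709 to 1362 bases, 40 members had a median of -0.39 and 1018 other genes -0.16, of which 10.5% fell. Among the 77 well counted members themselves, rho was 0.13 with summed exon length, 0.22 with the length of the coding transcript and -0.04 with the 50-base share.

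**Figure D5:**
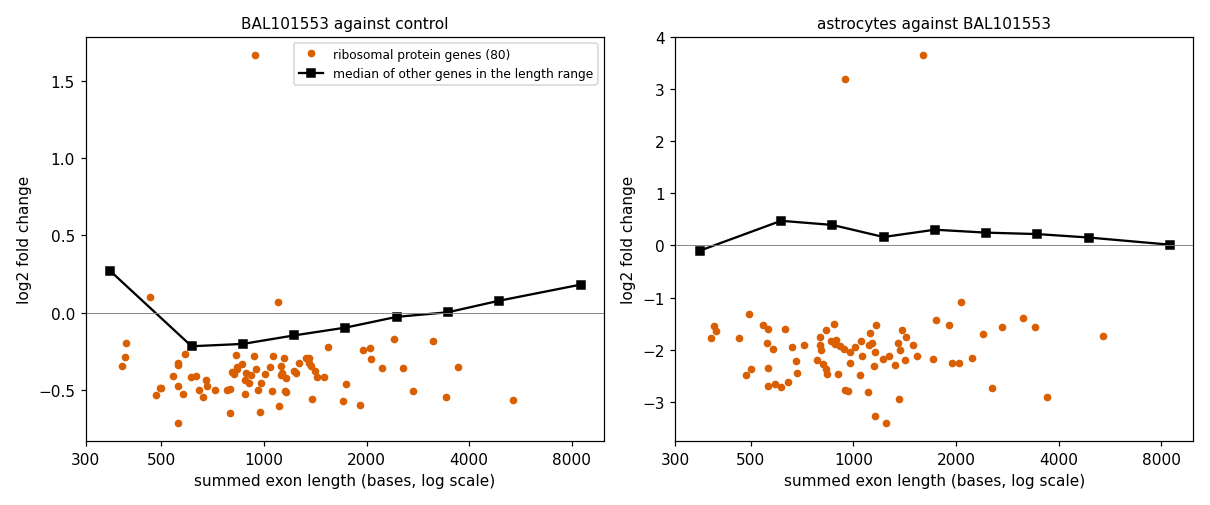
Log2 fold change against summed exon length on a log axis, for each of 80 ribosomal protein genes tested (orange) and as the median of all other tested genes in 9 length ranges (black). In BAL101553 against control the black line climbs from -0.22 at 501 to 750 bases to 0.18 above 6000, and most orange points lie under it; in astrocytes against BAL101553 the black line stays between -0.10 and 0.47.

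All 3 BAL101553 libraries had the length trend. Against the control mean, other genes of up to 1000 bases had median differences of -0.18, -0.16 and -0.12 in the 3 BAL101553 libraries and genes over 6000 bases 0.16, 0.17 and 0.15. In control libraries the same medians lay between -0.06 and 0.07. Its cause was not tested, and days of growth cannot be told apart from treatment.

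Level also went with the difference. Among other genes with a coding transcript of at most 1000 bases, the median log2 fold change was -0.07 at 1 to 10 CPM, -0.23 at 10 to 100 CPM and -0.26 above 100 CPM. In the last class 120 other genes stood beside 55 members with a median of -0.41, and 25.8% of the other genes fell against 24 of the 55 members. Where both coding length and level were held between the quartiles of the members, only 13 other genes were left, with a median of -0.38 against -0.40 for 41 members of those lengths, and 46.2% of the 13 fell. With each library's length trend removed, fitted on genes other than the members, 2 members fell in place of 29, and the median was -0.24, whereas 5.01% of all genes were still lower. The count of falls thus depended on the length trend, and the median kept its direction.

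Genes that work with the ribosome had like values in part. Rack1 (Gnb2l1), a scaffold on the small subunit, fell with -0.47 ± 0.109 (adjusted p = 0.031), while Fau had -0.36 ± 0.113 (adjusted p = 0.069). Of 9 elongation factors tested, 4 fell (Eef2, Eef1a1, Eef1g and Eif5a), and of 33 initiation factors 6 fell, with Eif6 at -0.51 ± 0.0861 (adjusted p = 0.013).

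Other TOP messages moved in both directions: of 14, 3 fell and 4 rose. The 4 that rose were Gas5 (0.79 ± 0.113, adjusted p = 0.0093), Snhg5, Snhg1 and Hnrnpa1 (0.74 ± 0.162, adjusted p = 0.027). Gas5, Snhg5 and Snhg1 are noncoding TOP transcripts that host small nucleolar RNAs. Those that fell were Eif3h, Eif3e and Pabpc1, all of which encode translation proteins, while Eif4b (0.06) did not pass. The lists share some genes in both comparisons. Eif3h and Eif3e are also counted among the initiation factors above, and Eif6 also among the assembly genes below.

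Of 67 genes of ribosome assembly and rRNA synthesis, 2 rose (Tcof1 and Taf1d) and 4 fell, with a median of -0.09. Of 17 regulators of TOP messages and ribosome synthesis tested, 0 passed, and of 17 genes of ribosome quality control and escort 2 rose and 3 fell, among them Grwd1, which escorts Rpl3, at -0.54 ± 0.113 (adjusted p = 0.023). Mitochondrial ribosomal proteins, which are nuclear genes of a separate ribosome, had 8 of 77 lower, 0 higher and a median of -0.25. Proteasome subunits, another complex of many short messages, had 10 of 33 lower, 0 higher and a median of -0.27. Rn45s, the 45S rRNA precursor, was looked up after the values were seen and stood at 10750, 9253 and 10550 CPM in control and 3579, 6682 and 3332 in BAL101553 libraries (-1.16 ± 0.262, adjusted p = 0.0283). Here too the second BAL101553 library was nearest to control. The part of rRNA left over from library preparation in the Rn45s counts, here and below, was not tested.

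In the astrocyte libraries ribosomal protein genes were far lower than in BAL101553 libraries. Of 80 members tested, 78 fell and 2 rose, whereas 38.9% of all 15314 genes tested fell and 46.3% rose. The median log2 fold change was -1.99, with quartiles of -2.33 and -1.73, against 0.18 over all genes tested. No member overlapped between the groups, whereas 40.2% of all genes lay wholly below and 47.6% wholly above. These groups differ in cell type, as the marker levels above show, and the share of the difference that goes with dividing cells was not tested. Both comparisons use the same BAL101553 libraries.

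Rpl12, which sits at the base of the stalk, fell furthest. It had 965, 1060 and 930 CPM in BAL101553 and 88.2, 85.9 and 103 in astrocyte libraries, a 10.5-fold difference (log2 fold change -3.40 ± 0.114, adjusted p = 7.84e-08). Rps2 had 1775, 1833 and 1616 CPM against 181, 171 and 184, which is 9.64-fold (-3.27 ± 0.104, adjusted p = 6.06e-08). Rplp0 (-2.94 ± 0.107), Rps20 (-2.92 ± 0.120) and Rpl34 (-2.81 ± 0.325) followed, the last from counts of at most 47.

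Rpl22, which binds RNA outside the ribosome as well, fell least. It had 170, 186 and 162 CPM in BAL101553 and 78.8, 77.8 and 84.3 in astrocyte libraries, a 2.13-fold difference (-1.09 ± 0.0813, adjusted p = 4.96e-06). Rpl7l1 (-1.40) and Rps9 (-1.42) were also among the smallest falls. The range from Rpl12 to Rpl22 was far wider than the SEs of these values.

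In the first comparison the 95% intervals of the acidic stalk genes overlapped, so that no order was set among them. Here Rplp0 had the largest fall (-2.94), Rplp1 was intermediate (-2.37 ± 0.0925) and Rplp2 had the smallest (-1.83 ± 0.108). The X-linked members lay between -2.73 in Rpl39 and -2.26 in Rps4x. Members on chromosome 7 had a median of -1.75, while the 1135 other genes tested there had 0.83. Exit tunnel proteins ranged from -2.78 in Rpl35 to -1.09 in Rpl22, and the 17 tested Diamond-Blackfan genes all fell, with a median of -2.19.

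The 2 members that rose were variant paralogues. Rps4l had 0.650, 0.868 and 2.44 CPM in BAL101553 and 12.9, 11.4 and 12.6 in astrocyte libraries, with a log2 fold change of 3.20 ± 0.441 (adjusted p = 0.000193). Its groups were far apart, and 14.9% of its 50-base stretches occur in 1 other annotated gene. Rpl3l had 0, 1 and 2 counts in BAL101553 and 12, 14 and 15 in astrocyte libraries. Over the summed counts of 3 and 41 the ratio was 13.8, with a 95% exact counting interval of 4.39 to 69.5. This interval leaves out the spread between libraries. The fitted log2 fold change was 3.65 ± 0.597 (adjusted p = 0.000529). Rpl3l passed the filter on low counts through its astrocyte libraries alone, so that its call is no independent support for a rise. The partners of these 2 paralogues, Rps4x and Rpl3, fell, with -2.26 ± 0.179 and -1.88 ± 0.0871.

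The rise with length of the first comparison was not seen here. From 501 bases on, medians of other genes mostly fell with length, from 0.47 at 501 to 750 bases to 0.01 above 6000. Genes of 500 bases or less had -0.10, and rho over 15112 genes was -0.02. With each library's length trend removed, the member median was -2.55 in place of -1.99. Between the quartiles of member lengths, 709 to 1376 bases, the members had -2.03 and 1348 other genes 0.31. Above 100 CPM with a coding transcript of at most 1000 bases, 99 other genes had a median of -0.87 and 55 members -1.95. With both coding length and level between the quartiles of the members, 13 other genes had -1.10 and 41 members of those lengths -2.0. Among the 77 well counted members rho of the fold change with mean CPM was -0.39, and the level enters both measures.

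The rest of the translation machinery fell with few exceptions. All 14 other TOP messages fell, with Pabpc1, the poly(A) binding protein, at -3.54 ± 0.104 (adjusted p = 4.3e-08). Of 67 assembly genes 63 fell, with Nop58 at -3.48 ± 0.118, and 2 rose (Sbds at 0.57 and Taf1b at 0.48). Of 10 elongation factors 7 fell and 3 rose, among the latter Eef1a2, the form of neurons and muscle, at 9.01 (adjusted p = 7.33e-05). Of 33 initiation factors 29 fell and 1 rose (Eif4g3).

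Regulators were mixed, with 11 of 18 lower and 5 higher. Myc, a driver of ribosome synthesis, had -5.27 ± 0.617 (adjusted p = 7.1e-05) and Mycn 3.25 (adjusted p = 0.00018). Mitochondrial ribosomal proteins had 54 of 77 lower, 6 higher and a median of -0.58, and proteasome subunits 32 of 33 lower with -1.11. Rn45s varied widely among astrocyte libraries, at 1723, 4401 and 1012 CPM, and did not pass (-0.91 ± 0.523, adjusted p = 0.137).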

How the data were processed

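The authors deposited counts, whole numbers of reads per gene without normalization. The study's methods give stranded libraries, 50-base reads, alignment by TopHat, and counting by HTSeq (0.6.1 per the labels' processing notes) and featureCounts. Which counter made the table, the annotation and the handling of reads with several matches are not given in the sources used here. The notes name mm10, the build (GRCm38) of the GENCODE vM21 lengths and positions. There, 23350 names were found under their symbol, 668 under a synonym and 401 not at all. The table holds more ex vivo samples per group than the study's text states.

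R 4.3.3 and edgeR 4.0.16 were used, with filterByExpr, TMM and the quasi-likelihood test on the 2 groups of each comparison, two-sided. P-values were adjusted by Benjamini-Hochberg across every gene of the fit, at a threshold of 0.05. SE was the log2 fold change over the root of F. Printed CPM were TMM-scaled across all 9 libraries. In simulated counts with 200 genes changed 2-fold, edgeR recovered 60% of them with 6 false calls among 12521 genes for BAL101553 against control, and 61% with 10 among 15073 genes for astrocytes against BAL101553. Alternatives used limma 3.58.1, DESeq2 1.42.0, other scalings and filters, a single model of all groups, fits that leave out a library, the replicate number as a block, and removal of the length trend. Coding transcript length, its match together with level, and the comparison within chromosomes were added after seeing the data. Libraries of a group differed by more than sampling noise, so none was merged in a fit. Counts were summed over libraries only for the ratio printed for Rpl3l. The genes named were variant paralogues and partners, role groups, in each comparison the 5 largest called changes in a direction (or the lowest adjusted p, up to 3), the 3 highest and lowest per kb, and up to 4 examples a list. Any other was chosen after its values were seen. Members and lists were chosen with earlier results of these data known. A few genes are not reported here.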

Additional observations from a re-analysis of the deposited data

How the results depend on the processing

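Within BAL101553 against control, 29 members fell in the main analysis. The count was 16 with total library sizes, 55 with DESeq2, 52 with all 9 libraries in one model, 2 with the length trend removed, 1 with that trend taken over coding transcript length, and 0 without control replicate 3 and BAL101553 replicate 1 together. It ranged from 0 to 55 when each library was left out. In the fit without control replicate 3 and BAL101553 replicate 1, 0 of 12713 genes fell and 1 rose, with 15 members lower at an unadjusted p under 0.05. The larger counts of DESeq2 stood beside 10.6% of all genes lower, and those of the single model beside 8.76%. No member rose except under the filter of at least 1 count in any library, where 1 did (Rpl39l). The median log2 fold change of -0.40 was -0.24 with the length trend removed, both over exons (-0.24) and over coding transcripts (-0.24), and otherwise kept within the spread between replicates. The member median minus that of other genes over the same length range, -0.37, was -0.23 between the quartiles of the member lengths, -0.35 with coding transcript length, -0.22 between its quartiles and -0.024 where level was held between the quartiles too, which left 13 other genes. Rpl34 ranged from -0.10 to 0.25 and Rps27 from -0.056 to 0.20 when each library was left out: Rpl34 turned without control replicate 1 (-0.098) and without BAL101553 replicate 1, and Rps27 without control replicate 2. The cause of these changes was not tested.

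With the replicate number as a block, 4 members fell in place of 29, and 4.01% of all genes. Same-numbered control and BAL101553 libraries deviated together with correlations of 0.14, 0.01 and 0.15. Libraries of different numbers reached at most 0.08, between the second control and the third BAL101553 library. Whether same-numbered libraries shared a batch was not tested. With the block, 78 members fell and 2 rose for astrocytes against BAL101553, as without it.

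For astrocytes against BAL101553, 76 to 80 members fell under every alternative run, and 2 rose except with at least 10 counts in every library, where 1 rose because Rpl3l was not tested. The median of -1.99 was -1.81 with upper quartile scaling, -1.78 with total library sizes, -1.77 with at least 10 counts in every library, -2.55 and -2.47 with the length trend removed over exons and coding transcripts, -2.29 less the genes of the same chromosome and -2.42 with control as the reference. Total library sizes moved the median of all genes from 0.18 to 0.39. The difference from other genes over the same length range, -2.21, was -2.34 between the quartiles, -0.90 with coding length and level both between their quartiles (13 other genes) and ranged from -2.32 to -2.16 when each library was left out.

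Of 967 values of 51 named genes under alternatives of BAL101553 against control, 759 kept direction and side of the threshold, 145 lost and 60 gained significance, and 3 reversed; all 966 of astrocytes against BAL101553 kept both. The summed share kept its direction throughout, at an exact permutation p of 0.1 or 0.2, which the number of libraries limits. Rpl30, Rpl34 and Rps27, with 2 to 47 counts a library, carry large counting error.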
